A study of Mus musculus with 6 samples.

Results

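A set of 8 genes of acid-base transport was followed in mouse lung fibroblasts after 10 days of high CO2. They are 5 bicarbonate transporters of the SLC4 family (Slc4a2, Slc4a3, Slc4a4, Slc4a7 and Slc4a8), the sodium-proton exchanger Slc9a8, and the scaffold proteins Slc9a3r1 and Slc9a3r2 that hold sodium-proton exchangers at the membrane. They were taken by name, and all 8 had a row among the 43430 Ensembl gene IDs of the count table. The cells were flow-sorted PDGFRA+ fibroblasts from both lungs of C57BL/6J mice, all male and 9 to 11 weeks old, and the labels name no transgene or mutation. The sample labels name PDGFRA for the room air libraries and only PDGFR+ for those of hypercapnia, while the description of the whole study names PDGFR alpha for both. One group of 9 mice breathed room air and the other group of 9 mice breathed 10% CO2 without lowered oxygen for 10 days, an exposure called hypercapnia. The cells of 3 mice were pooled in each library, so each group had 3 libraries, M1, M2 and M3 in room air and M4, M5 and M6 in hypercapnia. The spread between libraries is that between pools and averages over the mice within one.

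Carbon dioxide crosses cell membranes and is hydrated to bicarbonate and a proton, a reaction that carbonic anhydrases speed up, so that a rise in CO2 acidifies the cell. Cells correct this by bringing bicarbonate in through sodium-coupled SLC4 carriers and by pushing protons out through SLC9 sodium-proton exchangers. The anion exchangers of the SLC4 family trade bicarbonate for chloride and in most cells carry bicarbonate out. These carriers are regulated at the protein by pH and partner proteins as well as by the level of their RNA, and the RNA level alone was measured here.

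Total counts ran from 8999780 to 10198336 per library, more than the average depth of aligned reads that the labels give, a gap whose reason is not known. The sorted receptor gene Pdgfra stood at 2530 to 3707 CPM, a unit that scales counts to the library's total, here with TMM factors for composition, and the leukocyte gene Ptprc had 2 counts in all 6 libraries. Endothelial RNA was present in every library and unevenly so. Of 18 endothelial markers none was at 0, and their levels summed to 3255, 2731 and 877 CPM in the room air libraries and to 5235, 4093 and 3192 CPM in the hypercapnia libraries, in the order of their numbers, which is kept below. The room air library M3 had the lowest level and M4 the highest. Markers of alveolar fibroblasts summed to 26512, 26530 and 26585 CPM in room air and to 21768, 20492 and 22946 CPM in hypercapnia. Of the 15 markers 7 were called lower by edgeR, where 0.7% of all tested genes were. Markers of pericytes and smooth muscle summed to 369, 365 and 334 CPM against 488, 476 and 456 CPM, with 0 of 9 tested called by edgeR. Of these 9, 5 had an unadjusted p under 0.05, 3 higher and 2 lower, where 12% of all tested genes did in either direction. Neither list overlapped between the groups in its sum. Nor did mesothelial markers, at 233, 247 and 286 CPM against 223, 142 and 188 CPM. Of 6 tested mesothelial markers 1 was called lower by edgeR, and 5 had positive log2 fold changes. The sums of adventitial fibroblast markers overlapped. Their mean log2 CPM did not, at 8.07, 8.21 and 7.89 in room air and 8.34, 8.54 and 8.48 in hypercapnia. Of these 13 markers 11 were positive and 2 negative, and 1 was called higher by edgeR, where 0.523% of all tested genes were. An unadjusted p under 0.05 in edgeR was found for 7 on the higher side and 1 on the lower side. The part of these cells in the results below was not tested. In bulk RNA, fewer cells of a type and less RNA per cell cannot be told apart.

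None of the 7 genes that could be tested passed the test between hypercapnia and room air. By edgeR's quasi-likelihood test 0 of 7 had an adjusted p under 0.05, where 1.22% of all 13005 tested genes did (0.523% higher and 0.7% lower), and 0 of 7 had an unadjusted p under 0.05, where 12% of all genes did. DESeq2 and limma-voom also called 0 of 7, against 3.54% and 1.51% of all genes they tested. Of the 7 log2 fold changes, 3 were positive and 4 negative, with a median of -0.05 beside 0.01 over all tested genes. For 6 of the 7 the 95% interval lay inside a 2-fold change in either direction, an interval for each gene alone that is not adjusted over genes. Slc9a3r1 was the exception, and Slc4a8 had too few counts to be tested.

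**Figure D1:**
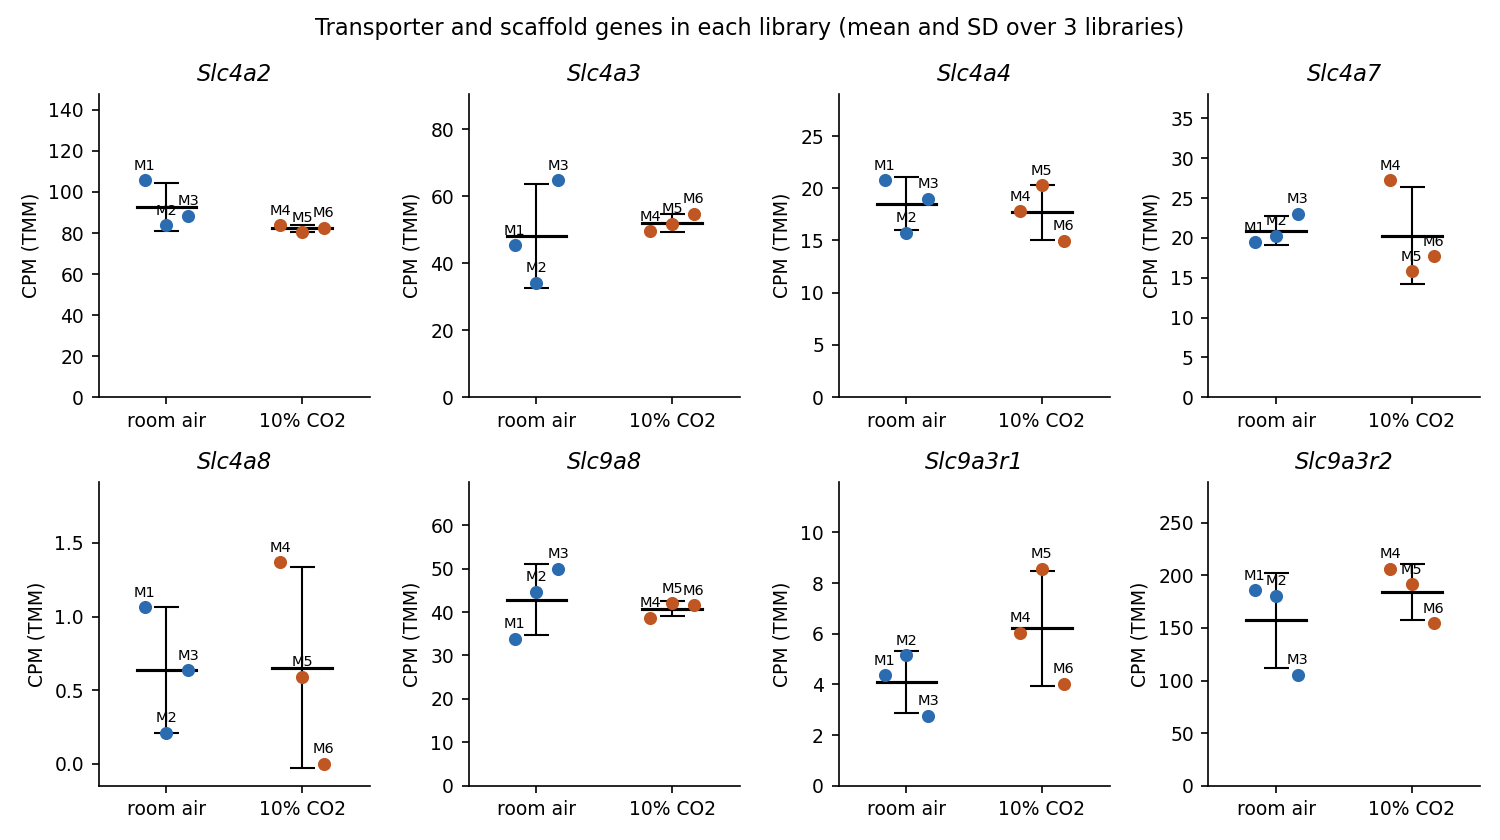
Level of each of the 8 genes in every library, in CPM after TMM scaling, with room air in blue, 10% CO2 in orange, and the mean and SD over 3 libraries in black. Apart from Slc4a2, whose hypercapnia libraries (80.3 to 83.8 CPM) sit just under the lowest room air library (83.9 CPM), the groups overlap for every gene.

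Slc4a2 encodes AE2, the widely expressed anion exchanger that lowers cell pH by carrying bicarbonate out. The gene, ENSMUSG00000028962, lies on chromosome 5 from 24423837 to 24440950 on the plus strand (mm10). It stood at 105.7, 83.9 and 88.5 CPM in room air and at 83.8, 80.3 and 82.7 CPM in hypercapnia. All hypercapnia libraries were below all room air libraries, but the gap between M2 and M4 was 83.86 against 83.76 CPM. Over all tested genes, 18% had groups that did not overlap, 8.74% with hypercapnia lower and 9.28% with it higher. The means were 92.7 ± 11.5 CPM (SD, n = 3) and 82.3 ± 1.76 CPM, the log2 fold change was -0.17 ± 0.12 (SE) and the edgeR adjusted p was 0.648. The 95% interval ran from 0.740-fold to 1.06-fold. Of the exonic bases of Slc4a2, 13.7% are shared with Fastk and Gm22333 on the other strand, and reads there cannot be assigned without the strand setting of the counting. None of the other 7 genes shares exonic bases with another gene model.

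Slc4a3 encodes AE3, an anion exchanger best known from heart and brain. The gene (ENSMUSG00000006576, chromosome 1, 75546266 to 75562172, plus strand) had 45.3, 34.2 and 64.7 CPM in the room air libraries and 49.5, 51.8 and 54.7 CPM in the hypercapnia libraries. The room air libraries held both the lowest and the highest value, and all hypercapnia libraries fell between them. The means were 48.1 ± 15.5 and 52.0 ± 2.65 CPM (SD, n = 3), with a log2 fold change of 0.11 ± 0.20 and an edgeR adjusted p of 0.899. One library set the sign: without M2 the log2 fold change was -0.08 ± 0.17, and without M3 it was 0.39 ± 0.17 (edgeR adjusted p = 0.332). The 95% interval with all libraries ran from 0.794-fold to 1.47-fold.

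Slc4a4 encodes NBCe1, a sodium-bicarbonate cotransporter that also moves charge and that is known for reabsorbing bicarbonate in the kidney. It lies on chromosome 5 from 88886818 to 89239653 on the plus strand (ENSMUSG00000060961). Its levels were 20.8, 15.8 and 19.0 CPM in room air and 17.8, 20.3 and 15.0 CPM in hypercapnia, so that each group had a library near 15 and another above 20 CPM. The difference on the log2 scale was -0.07 ± 0.20 (edgeR adjusted p = 0.944), and the 95% interval ran from 0.706-fold to 1.29-fold. Slc4a7 encodes NBCn1, the electroneutral sodium-bicarbonate cotransporter that brings base into many cell types. The gene (ENSMUSG00000021733, chromosome 14, 14702279 to 14799940, plus strand) had 19.5, 20.3 and 23.0 CPM in room air and 27.2, 15.8 and 17.7 CPM in hypercapnia. Here the hypercapnia libraries were the scattered ones, with M4 the highest of all 6 and M5 the lowest. The log2 fold change was -0.05 ± 0.22 (edgeR adjusted p = 0.964), with a 95% interval from 0.688-fold to 1.36-fold.

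Slc4a8 encodes NDCBE, a sodium-driven chloride-bicarbonate exchanger known mainly from neurons. The gene (ENSMUSG00000023032, chromosome 15, 100761747 to 100823968, plus strand) had 9, 2 and 6 counts in room air and 12, 6 and 0 counts in hypercapnia. It did not pass the filter on low counts. The group sums were 17 and 18 counts, and without the filter its log2 fold change was 0.03 ± 1.33. At this depth 3 counts correspond to 0.281 to 0.354 CPM, the limit that a count of 0 allows for counting error alone, so the 0 counts of M6 do not separate it from M2. No difference in Slc4a8 was detectable.

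Slc9a8 encodes NHE8, a sodium-proton exchanger of Golgi and endosome membranes that also reaches the apical surface in kidney and intestine. It lies on chromosome 2 from 167421712 to 167477000 on the plus strand (ENSMUSG00000039463). Its levels were 33.9, 44.7 and 49.98 CPM in room air and 38.7, 42.0 and 41.6 CPM in hypercapnia. As for Slc4a3, the room air libraries spanned the wider range and enclosed all hypercapnia libraries. The difference on the log2 scale was -0.07 ± 0.16 (edgeR adjusted p = 0.924), and the 95% interval ran from 0.745-fold to 1.22-fold.

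Slc9a3r2 encodes NHERF2, a scaffold with PDZ domains that ties membrane proteins to ezrin and the actin cortex. The gene (ENSMUSG00000002504, chromosome 17, 24639286 to 24650327, minus strand) had 185.8, 180.7 and 105.5 CPM in room air and 206.3, 191.8 and 154.7 CPM in hypercapnia. M3 was far below the other room air libraries, which lay among those of hypercapnia. The means were 157 ± 45.0 and 184 ± 26.6 CPM (SD, n = 3), with a log2 fold change of 0.23 ± 0.20 and an edgeR adjusted p of 0.747. Without M3 the log2 fold change was 0.01 ± 0.14. The 95% interval with all libraries ran from 0.860-fold to 1.59-fold.

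Slc9a3r1 encodes NHERF1 or EBP50, the related scaffold that is abundant at the apical membrane of epithelia. The gene (ENSMUSG00000020733, chromosome 11, 115163341 to 115181181, plus strand) had 37, 49 and 26 counts in room air and 53, 87 and 43 counts in hypercapnia. In CPM these were 4.37, 5.15 and 2.76 against 6.04, 8.56 and 4.03. M5 was the highest and M3 the lowest, and M6 fell below M1 and M2, so the groups overlapped. The log2 fold change of 0.60 ± 0.40 was the largest of the 7 but did not pass (edgeR adjusted p = 0.634). Its 95% interval ran from 0.816-fold to 2.82-fold, so a doubling of Slc9a3r1 cannot be told from no change with these libraries.

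**Figure D2:**
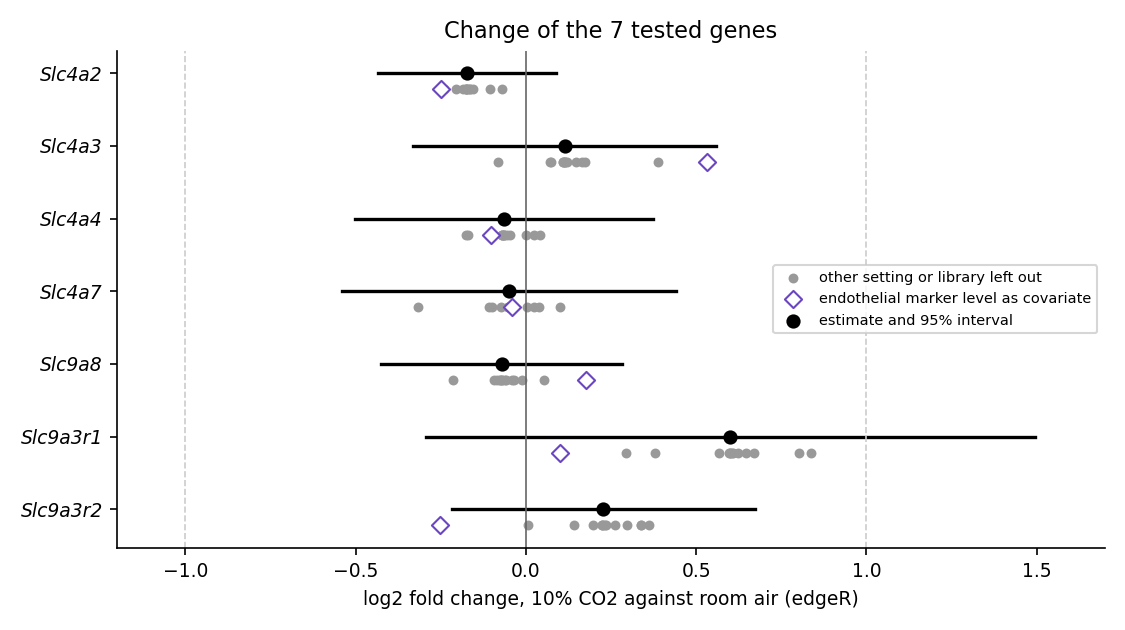
Log2 fold change (10% CO2 against room air, edgeR) of the 7 tested genes with its 95% interval in black. Grey points are the values under other settings or with 1 library left out, purple diamonds those of the fit that takes the endothelial level into account, and dashed lines mark a 2-fold change. All 7 intervals cross 0, and that of Slc9a3r1 reaches past a doubling.

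The levels of both scaffold genes were set beside the endothelial marker level of the libraries. M3, which had the lowest endothelial level, also had the lowest Slc9a3r2 and Slc9a3r1. M4, which had the highest, had the highest Slc9a3r2, while Slc9a3r1 was highest in M5. Between these ends the orders differed, as M2 had a lower endothelial level than M6 but more of both scaffold genes. In a fit with the libraries' mean endothelial level as a covariate, the log2 fold change of Slc9a3r2 turned to -0.25 ± 0.13 (edgeR adjusted p = 0.37) and that of Slc9a3r1 shrank to 0.10 ± 0.52. Slc4a3 and Slc9a8 were instead highest in M3, at 64.7 and 49.98 CPM. With the covariate Slc4a3 stood at 0.53 ± 0.19 (unadjusted p = 0.0161, edgeR adjusted p = 0.194) and Slc9a8 turned to 0.18 ± 0.19. Of the endothelial markers, 18 of 18 were on the positive side between the groups and 0 were called by edgeR's adjusted p. An unadjusted p under 0.05 was found for 13 of the 18, where 12% of all tested genes had one, so this covariate moved with the groups too. The part of endothelial RNA in the levels of the scaffold genes, Slc4a3 and Slc9a8 was not tested separately from the exposure. Markers of alveolar type 2 cells, epithelial cells of the alveolus, summed to 357, 339 and 153 CPM in room air and to 251, 459 and 420 CPM in hypercapnia. M3 was again the lowest and M5, the library with the most Slc9a3r1, the highest. Airway epithelial markers went otherwise, at 422, 657 and 475 CPM in room air and 493, 230 and 359 CPM in hypercapnia. M5 was the lowest there, as it was for the mesothelial markers, and M3 was not. The part of any of these cells in the level of Slc9a3r1 was not tested.

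**Figure D3:**
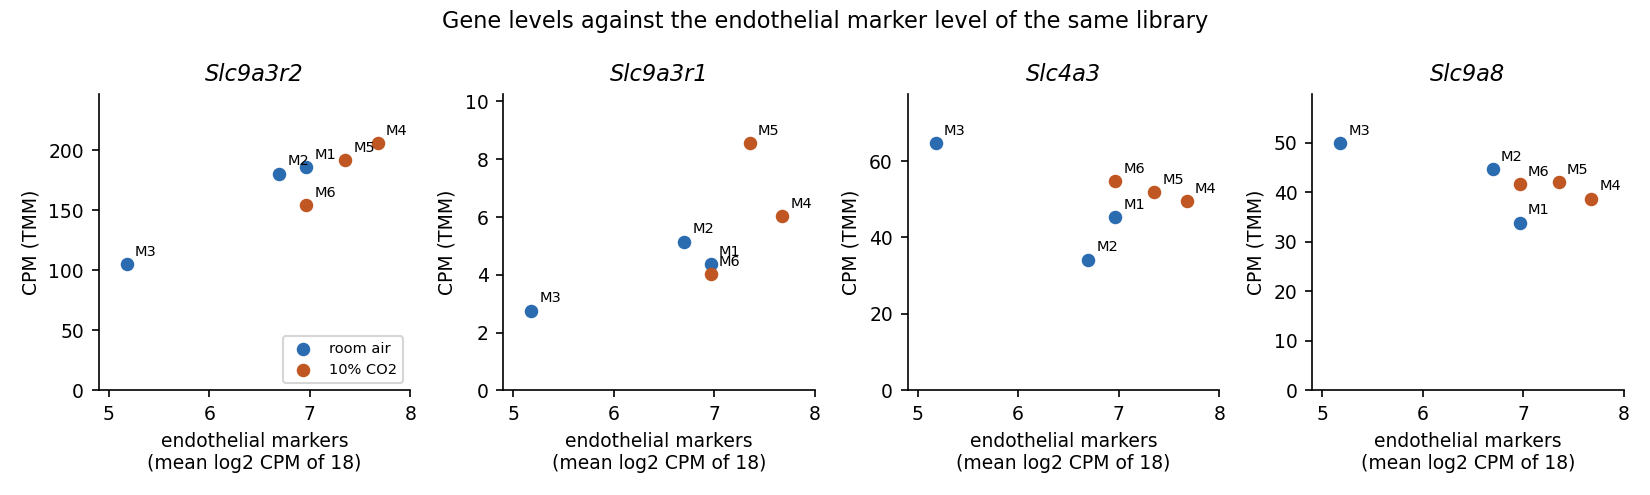
CPM of 4 genes in each library against the mean log2 CPM of 18 endothelial markers in the same library, with room air in blue and 10% CO2 in orange. M3 lies far to the left, where Slc9a3r2 (105.5 CPM) and Slc9a3r1 (2.76 CPM) are at their lowest and Slc4a3 (64.7 CPM) and Slc9a8 (49.98 CPM) at their highest.

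The genes most like each scaffold over the 6 libraries were looked up by Pearson's r of log2 CPM, among tested genes whose mean CPM was 5 or more. For Slc9a3r2, the member with the highest CPM, these were Itpkb (r = 0.997), Arhgef3 (0.995), Pip5k1c (0.993), Cttnbp2nl (0.992) and Kdr (0.992). Kdr, the VEGF receptor of endothelial cells, is on the endothelial marker list. For Slc9a3r1, the member with the smallest p, they were Adipor1 (0.997), Golim4 (0.993), Zfp367 (0.990), Tor4a (0.983) and Wipi2 (0.980), none of them on that list. With 6 libraries and so many candidates such values are a description only. Among the 21 pairs of tested members r ran from -0.71, for Slc9a8 with Slc9a3r2, to 0.83, for Slc9a3r1 with Slc9a3r2.

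As the most alike pair, the scaffold genes are shown with the 250 bases before their first RefSeq transcript start (GRCm38.p6), 5′ to 3′, with CpG dinucleotides in capitals. The window of Slc9a3r1 is chr11:115163091-115163340 on the plus strand and that of Slc9a3r2 is chr17:24650306-24650555 on the minus strand.
Slc9a3r1: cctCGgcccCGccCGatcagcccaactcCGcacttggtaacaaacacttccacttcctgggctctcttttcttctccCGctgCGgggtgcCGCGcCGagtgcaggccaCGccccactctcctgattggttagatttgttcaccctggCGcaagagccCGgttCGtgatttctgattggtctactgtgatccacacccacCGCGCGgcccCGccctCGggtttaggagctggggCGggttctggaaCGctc
Slc9a3r2: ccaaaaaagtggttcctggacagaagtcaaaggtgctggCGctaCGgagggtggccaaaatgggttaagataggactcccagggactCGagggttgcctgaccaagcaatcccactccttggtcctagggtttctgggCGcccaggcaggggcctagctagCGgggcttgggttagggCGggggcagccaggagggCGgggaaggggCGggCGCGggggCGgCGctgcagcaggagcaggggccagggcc
The window of Slc9a3r1 holds 20 CpG and that of Slc9a3r2 holds 12, both above the median of 6 over 32851 such windows. As many CpG or more were found in 17.9% and 33.5% of all windows. All 8 genes had at least 1 window, 11 in all, and their CpG counts ran from 2 for Slc4a7 to 44 for the first start of Slc4a4. The motifs below were searched on both strands, and none contains another. The GC box GGGCGG was found in 5 of the 11 windows, among them both shown, and in 32.7% of all windows. The E-box CACGTG and the cAMP response element TGACGTCA were found in 0 of the 11, and in 6.02% and 1.55% of all windows. TATAAA was found in 1, that of Slc4a7, and in 12.4% of all. The only window of Slc4a7, chr14:14718534-14718783, lies inside the gene, which is annotated from 14702279 on the plus strand. Its 2 CpG and its TATAAA thus belong to an internal start and not to the sequence before the gene's 5′ end. Counts per gene do not tell which start was in use.

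Levels were compared between genes per kb of exonic sequence. Slc9a3r2 stood highest, at 64.5 CPM per kb over the 6 libraries (39.9 to 78.0), a level above that of 95.6% of tested genes. Slc4a2 followed at 10.5 (9.65 to 12.7), then Slc4a3 at 5.82 (3.97 to 7.53), Slc9a8 at 4.60, Slc9a3r1 at 2.68, Slc4a4 at 1.67 and Slc4a7 at 1.35 CPM per kb. Slc4a8 was lowest at 0.0495 CPM per kb. Slc9a3r2 and Slc4a2 did not overlap with the genes next below them, and neither did Slc4a7 with Slc4a8. From Slc4a3 down to Slc4a7 each gene overlapped the next. With the length of the longest transcript in place of all exonic bases, Slc9a8 came before Slc4a3 and Slc4a7 before Slc4a4, both of them neighbours that overlap.

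**Figure D4:**
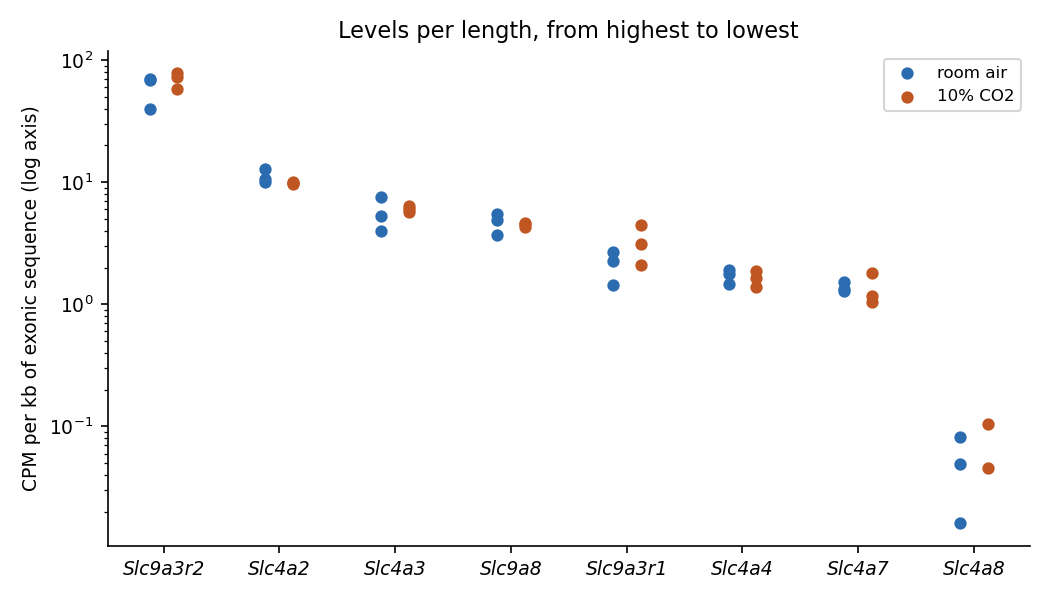
Level of the 8 genes in each library, in CPM per kb of exonic sequence on a log axis, ordered by the mean over 6 libraries, with room air in blue and 10% CO2 in orange. Slc9a3r2 stands apart at the top (39.9 to 78.0) and Slc4a8 at the bottom, where M6 with 0 counts is not drawn.

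Within the SLC4 family the anion exchangers outweighed the sodium-coupled carriers in every library. The summed level of Slc4a2 and Slc4a3 was 5.48, 5.00 and 5.47 times that of Slc4a4, Slc4a7 and Slc4a8 per kb in the room air libraries and 4.47, 5.29 and 6.39 times in those of hypercapnia. The hypercapnia libraries lay on both sides of those of room air, with means of 5.32 ± 0.271 and 5.38 ± 0.963 (SD, n = 3). Between the scaffolds, Slc9a3r2 was 25.5 to 31.0 times as high as Slc9a3r1 per kb in room air and 16.3 to 27.9 times in hypercapnia, ranges that overlap.

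The spread between libraries of a group was wider than counting error for all 7 tested members in room air and for 5 in hypercapnia. Slc4a3 varied by 32.2% (SD over mean) in room air, where counting alone gives 4.77%, and by 5.09% in hypercapnia, where it gives 4.41%. Slc9a3r2 varied by 28.6% and 14.4%, where counting gives 2.64% and 2.36%. Slc4a7 went the other way, with 8.92% in room air and 30.1% in hypercapnia. With 3 libraries a group, no test of these spreads was made.

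Other genes of acid-base transport were read from the same fit, in lists of 106 genes of which 60 passed the filter. None of the 60 was called by edgeR's adjusted p, where 1.22% of all tested genes were. An unadjusted p under 0.05 was found for 11 of the 60 (12% of all genes), and groups that did not overlap for 14 (18% of all genes). Their median log2 fold change was -0.01, with 29 positive and 31 negative. The remaining 5 SLC4 genes were not tested, and the best covered of them, Slc4a11, had 42 counts over all libraries.

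Of the other sodium-proton exchangers 5 of 11 were tested, and all 5 had a negative log2 fold change with a median of -0.32. Slc9a5, the exchanger NHE5 known from brain, stood at 23.5, 17.3 and 27.9 CPM against 13.8, 11.9 and 14.6 CPM. Its hypercapnia libraries were all below those of room air, and its log2 fold change of -0.77 ± 0.22 had an unadjusted p of 0.00471 and an edgeR adjusted p of 0.144. Slc9a3, which encodes NHE3, the exchanger that gave the scaffold genes their older symbols, had 0 counts in all 6 libraries.

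Among partners of the scaffolds, 6 of 8 were tested. Msn, which encodes moesin, was the highest per length and stood at 460 ± 70.0 and 456 ± 47.9 CPM (SD, n = 3). Rdx, which encodes radixin, stood at 349 ± 20.1 and 290 ± 26.8 CPM with a log2 fold change of -0.26 ± 0.11 (edgeR adjusted p = 0.378). Of 12 listed genes, the SLC26 anion exchangers with Cftr added, 3 were tested, among them Slc26a11 (0.03 ± 0.22) and the sulfate carrier Slc26a2 (0.33 ± 0.14, edgeR adjusted p = 0.393). Of 11 regulators of these carriers 9 were tested, and the kinase gene Wnk4 had the smallest p with 4, 5 and 19 counts in room air and 18, 45 and 24 counts in hypercapnia (1.52 ± 0.69, edgeR adjusted p = 0.42). The phosphatase subunit gene Ppp1ca was the highest of these per length (0.01 ± 0.14).

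Of 16 carbonic anhydrases 7 were tested, with 4 positive and 3 negative log2 fold changes and a median of 0.75. At an unadjusted p under 0.05 there were 2 on the higher side, Car4 (0.98 ± 0.30, edgeR adjusted p = 0.175) and Car14 (0.88 ± 0.40, edgeR adjusted p = 0.412), both lowest in M3, and 1 on the lower side. The cytosolic enzyme gene Car2 was the highest per length and also had the smallest p, at 93.6 ± 7.49 and 70.0 ± 7.45 CPM (-0.42 ± 0.12, edgeR adjusted p = 0.156). Of 6 genes of lactate-proton cotransport 5 were tested, with the chaperone gene Bsg at 325 ± 16.9 and 310 ± 35.6 CPM. Slc16a7 had few counts, 2, 11 and 10 in room air and 24, 23 and 18 in hypercapnia, with a log2 fold change of 1.41 ± 0.67 (edgeR adjusted p = 0.443). Of 24 genes of the vacuolar proton pump, which acidifies organelles, 20 were tested and their log2 fold changes ran from -0.22 to 0.47. They included Tcirg1 (0.32 ± 0.13, edgeR adjusted p = 0.334) and Atp6ap1, the highest per length (-0.14 ± 0.10, edgeR adjusted p = 0.671).

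**Figure D5:**
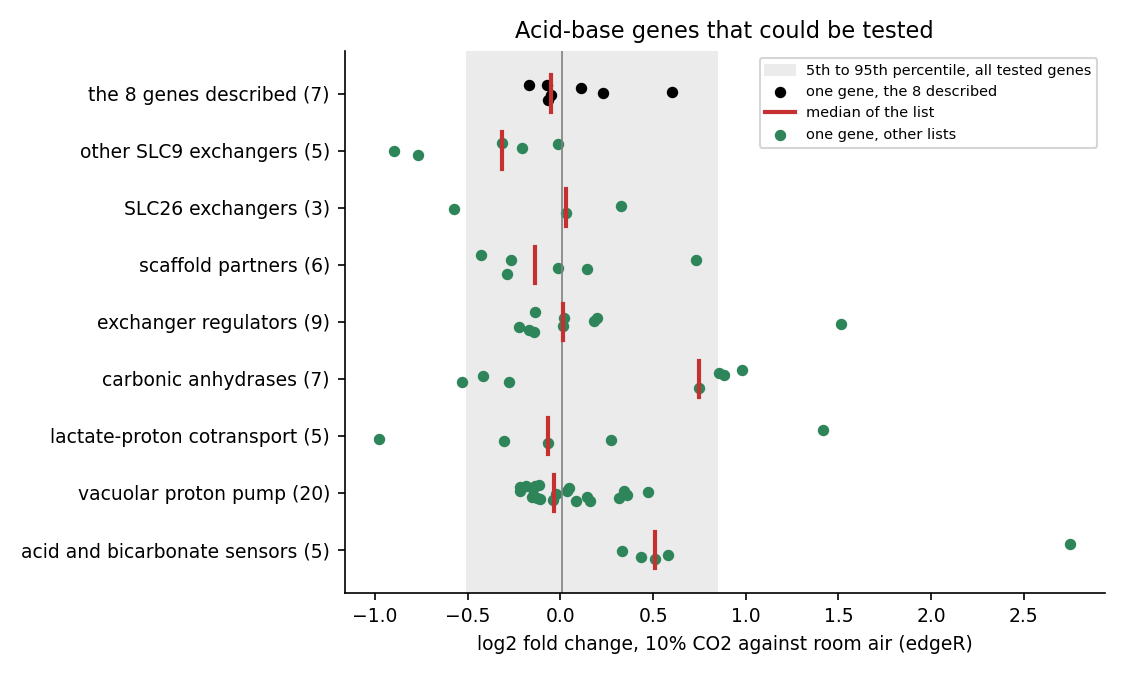
Log2 fold change (10% CO2 against room air, edgeR) of each tested gene of the 8 described and of 8 further acid-base lists, with the number tested in brackets and the list's median in red. The grey band holds the 5th to the 95th percentile of all 13005 tested genes, and all 7 described genes lie inside it.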

How the data were processed

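The deposited values are raw read counts per Ensembl gene in 6 libraries, with no normalization by the authors. TopHat2 2.1.0 and HTSeq, beside bcl2fastq 2.17.1.14 and FastQC, are named per the submitters' processing notes, as is mm10, with no roles. For the annotation release and the strand setting, the sources used here give nothing. Columns carry the group but numbers other than those of the sample titles, so each was assigned to its group only. Symbols, positions and exonic lengths came from GENCODE M21 (mm10), which named 42462 of 43430 IDs. No 2 libraries agreed within sampling noise (chi-square per degree of freedom at least 12.6).

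Groups were compared in edgeR 4.0.16 (R 4.3.3) by its two-sided quasi-likelihood test with TMM factors, the group as the only term and edgeR's filter at a minimum count of 10, which kept 13005 genes. Benjamini-Hochberg adjustment ran over all of them, and an adjusted p under 0.05 was called. SE is the log2 fold change divided by the square root of F, and intervals use the fit's total degrees of freedom. The edgeR, DESeq2 and limma-voom fits were tested on simulated data. DESeq2 1.42.0, limma-voom (limma 3.58.1), other factors, filters and dispersions, an endothelial covariate and leaving out each library were alternatives. Members and lists were chosen with earlier results of these data known. Other pathway genes are named where called, highest per length or smallest in p in their list. Slc9a3, Car4, Car14, Gpr4 and Adcy10 fall outside that rule and were chosen after their values were seen. Not every gene the rule names is reported here. Counting limits cover counting error only. Promoter sequences are from RefSeq (GRCm38.p6).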

Additional observations from a re-analysis of the deposited data

How the results depend on the processing

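None of the 7 tested genes was called under any of the 14 alternatives, nor was Slc4a8 where the filter was lifted. Of their 98 alternative values 10 changed sign. With the endothelial marker level as covariate Slc9a3r2 turned to -0.25 and Slc9a8 to 0.18, and without composition factors Slc4a7 turned to 0.0018. With each library left out in turn, values ran from -0.083 to 0.388 for Slc4a3, from -0.177 to 0.041 for Slc4a4, from -0.318 to 0.099 for Slc4a7, from -0.215 to 0.052 for Slc9a8, from -0.24 to -0.07 for Slc4a2, from 0.29 to 0.84 for Slc9a3r1 and from 0.01 to 0.36 for Slc9a3r2. The number of genes called over the whole table was 159, with 68 higher and 91 lower, or 97 higher and 75 lower without composition factors. It was 756 without a filter, 443 by DESeq2 and 255 with robust dispersion, and 24 to 148 with a library left out (24 without M2, 27 without M5 and 42 without M6). Of the 60 other acid-base genes, 0 were called at first, 2 by DESeq2 (Car4 and Ptk2b) and 1 with robust dispersion (Ptk2b). Over all genes DESeq2 called 3.54%, and robust dispersion 255 of 13005. Without a filter 93 of the listed genes were tested, and 6 were called (Car4, Slc9a5, Sgk1, Ptprg, Podxl and Ptk2b). In that setting 756 of all 20868 genes were called. The cause of these differences was not tested. The order of levels per length, with the longest transcript as an alternative added after seeing the data, was the same for 5 of 7 neighbouring pairs. No paired analysis was possible because the columns carry no replicate numbers shared between the groups.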

Other observations

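Genes that sense acid or bicarbonate were listed beside the carriers. Of 13 listed genes 5 were tested, and all 5 had a positive log2 fold change. The calcium-dependent kinase gene Ptk2b, which encodes Pyk2, had 12, 1 and 9 counts in room air and 56, 62 and 45 counts in hypercapnia. Its hypercapnia libraries were all above those of room air, with a log2 fold change of 2.75 ± 0.66 that did not pass by edgeR's quasi-likelihood test (adjusted p = 0.0891). It was called by DESeq2 (adjusted p = 0.000912), with robust dispersion in edgeR (adjusted p = 0.0435) and without a filter. Ptprg, a receptor phosphatase known as a sensor of bicarbonate, was the highest of these genes per length and stood at 181 ± 27.8 and 244 ± 42.8 CPM (SD, n = 3; 0.44 ± 0.16, edgeR adjusted p = 0.268). Its libraries stood in the same order as their mean endothelial marker level, from 153 CPM in M3 to 284 CPM in M4. Gpr4, a proton-sensing receptor of endothelial cells, stood at 13.1, 10.5 and 11.4 CPM in room air and at 17.9, 22.2 and 12.1 CPM in hypercapnia (0.58 ± 0.25, edgeR adjusted p = 0.39). Its groups overlapped. The part of endothelial RNA in the levels of these 5 genes, Ptprg and Gpr4 included, was not tested gene by gene. Adcy10, the bicarbonate-activated soluble adenylyl cyclase, had 1 count over all 6 libraries.

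Car4, a membrane-bound carbonic anhydrase of capillary endothelium in lung, stood at 38.5, 45.9 and 16.6 CPM in room air and at 72.2, 72.6 and 54.0 CPM in hypercapnia (0.98 ± 0.30, edgeR adjusted p = 0.175). Its lowest library was M3, which also had the lowest endothelial marker level, and DESeq2 called it (adjusted p = 0.0146). The part of endothelial RNA in the level of Car4 was not tested either. With the endothelial level as a covariate, edgeR called 0 of the 60 other acid-base genes, and 13 had an unadjusted p under 0.05. Over all 13005 genes this fit called 181, and 2062 had an unadjusted p under 0.05. Without the covariate edgeR had also called 0 of the 60.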
